A study of Mus musculus with 8 samples.

Results

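The fibroblasts of the meninges were followed through 10 of their genes, *Dcn*, *Col1a2*, *Slc6a13*, *Slc47a1*, *Bnc2*, *Ptgds*, *Ranbp3l*, *Slc6a20a*, *Slc22a6* and *Tbx15*, which were chosen by name as a list. All 10 were found among the 46517 genes of the bulk RNAseq tables and among the 24051 genes of the snRNAseq tables. Each assay had 4 libraries, and each library was made from the 2 hippocampi of 1 mouse aged 12 weeks. In both assays 2 mice were *Gfap-Cre;Wlsfl/-* (mutant) and 2 were *Gfap-Cre;Wlsfl/+* (control). All 8 libraries thus carried *Gfap-Cre*, a Cre recombinase driven by the *Gfap* promoter in neural and glial progenitors and in astrocytes, and a floxed copy of *Wls*. *Wls* encodes a chaperone that Wnt proteins need for their secretion. The other copy of *Wls* was null in every cell of the mutant and intact in the control, so a lower *Wls* level in a mutant cell does not tell whether Cre acted there. The study used the mutant as a model of dentate gyrus hypoplasia, and the comparison asked here is how the genes of the meningeal fibroblasts stood in the 2 genotypes and in which nuclei they were found.

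The meninges are the membranes around the brain, and their pia lies on the hippocampus and follows its vessels and fissure, so that a dissected hippocampus brings some of it along. Their fibroblasts make collagen and proteoglycan, and the inner layers carry solute carriers that move amino acids, organic anions and cations between the cerebrospinal fluid, the blood and the brain. They also act as a source of retinoic acid and of signals for the cortex and the dentate gyrus during development. Among the 10 genes, *Dcn* (decorin, a small proteoglycan that binds collagen) and *Col1a2* (a chain of type I collagen) belong to the matrix. *Slc6a13* (a transporter of GABA and taurine), *Slc6a20a* (a transporter of proline and other imino acids), *Slc22a6* (an organic anion transporter) and *Slc47a1* (an extruder of organic cations) are carriers. *Ptgds* encodes prostaglandin D synthase, which is secreted into the cerebrospinal fluid and is also made by oligodendrocytes. *Bnc2* and *Tbx15* encode transcription factors, and *Ranbp3l* encodes a protein that binds the nuclear transport factor Ran.

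Bulk libraries held 56002381 to 79576196 expected counts. Those of snRNAseq held 5304 to 10460 nuclei and 26307081 to 76486132 UMIs, and any pair of them shared 8 to 21 barcode sequences. *Wls* was at 3.67 and 6.86 CPM (counts scaled to library size by TMM) in the mutant and 13.2 and 13.0 CPM in the control bulk libraries, and the libraries of the genotypes did not overlap in snRNAseq either. *Xist* and *Ddx3y* marked replicate 1 of each genotype as male and replicate 2 as female in bulk RNAseq, which goes against the male sex given by the labels for all mice, whereas all 4 snRNAseq libraries had the pattern of males. Sex was thus balanced between the genotypes in bulk RNAseq and followed the replicate number. Choroid plexus epithelium was unevenly present. The 12 genes of its list summed to 1314 and 8775 CPM in mutant replicates 1 and 2. In the control replicates they summed to 446 and 333 CPM. In snRNAseq the deposited type CP had 184 nuclei in mutant replicate 2, 9 in control replicate 1 and 0 in the other libraries.

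The genes lie on 9 chromosomes of the mm10 mouse genome, with positions given here from GENCODE vM21. They are *Dcn* at chr10:97479609-97518143 (plus strand), *Col1a2* at chr6:4504814-4541544 (plus), *Slc6a13* at chr6:121300227-121337733 (plus), *Slc47a1* at chr11:61343401-61378345 (minus) and *Bnc2* at chr4:84275095-84675275 (minus). The others are *Ptgds* at chr2:25466709-25470046 (minus), *Ranbp3l* at chr15:8967949-9067335 (plus), *Slc6a20a* at chr9:123634770-123678885 (minus), *Slc22a6* at chr19:8618039-8628299 (plus) and *Tbx15* at chr3:99240381-99354259 (plus). All are protein-coding. *Slc6a20a* shares its span with 5 other annotated genes, and *Col1a2*, *Slc6a13*, *Bnc2* and *Tbx15* with 1 each. *Gm47171* in *Slc6a20a*, *Gm43921* in *Col1a2* and *Gm12421* in *Bnc2* lie on the same strand, so that reads in those stretches are uncertain. The others lie on the opposite strand, where this depends on the strand setting of the counting. *Slc6a20b*, a close relative of *Slc6a20a*, was at 0.30 to 0.57 TPM in the bulk libraries against 8.08 to 20.6 TPM for *Slc6a20a*.

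Promoter sequences from RefSeq (GRCm38.p6, 250 bases before to 50 after a start site) were found for 7 of the 10 genes, with 9 start sites. Those of *Slc22a6*, *Slc6a13*, *Ptgds* and *Ranbp3l* are shown because these are the 4 genes whose bulk levels were lower in both mutant libraries than in both control libraries. For *Slc6a13*, which has 3 start sites, the second is shown, the only 1 of the 3 with a match to a searched motif. Capitals mark matches to a searched motif, and each sequence reads 5′ to 3′ on the strand of its gene. They lie at chr19:8617746-8618045 (plus), chr6:121300490-121300789 (plus), chr2:25469700-25469999 (minus) and chr15:8967699-8967998 (plus).
Slc22a6: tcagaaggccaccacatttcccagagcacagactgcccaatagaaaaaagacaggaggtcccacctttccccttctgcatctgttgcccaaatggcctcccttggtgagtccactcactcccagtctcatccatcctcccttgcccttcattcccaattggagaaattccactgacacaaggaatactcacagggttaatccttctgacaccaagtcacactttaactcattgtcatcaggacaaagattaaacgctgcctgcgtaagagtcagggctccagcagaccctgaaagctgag
Slc6a13: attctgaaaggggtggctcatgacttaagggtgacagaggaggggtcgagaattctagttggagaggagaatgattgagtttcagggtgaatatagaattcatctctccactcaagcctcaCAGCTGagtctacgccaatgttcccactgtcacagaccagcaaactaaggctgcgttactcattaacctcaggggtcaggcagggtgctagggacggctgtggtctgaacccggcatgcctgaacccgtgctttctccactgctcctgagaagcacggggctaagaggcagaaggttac
Ptgds: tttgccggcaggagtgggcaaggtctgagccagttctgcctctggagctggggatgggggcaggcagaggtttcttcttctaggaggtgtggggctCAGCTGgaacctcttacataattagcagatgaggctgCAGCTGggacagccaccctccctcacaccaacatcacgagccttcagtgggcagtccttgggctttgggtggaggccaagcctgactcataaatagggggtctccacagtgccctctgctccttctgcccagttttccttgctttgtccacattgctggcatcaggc
Ranbp3l: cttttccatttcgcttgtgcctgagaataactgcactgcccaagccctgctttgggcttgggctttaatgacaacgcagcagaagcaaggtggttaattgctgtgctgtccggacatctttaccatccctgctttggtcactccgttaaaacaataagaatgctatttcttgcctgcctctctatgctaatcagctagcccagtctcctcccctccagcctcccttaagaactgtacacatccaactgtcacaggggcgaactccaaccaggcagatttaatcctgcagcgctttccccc

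The motifs searched, on both strands, were TATAAA (the TATA box), TGTTTAC (bound by forkhead factors), AGGTGTGA (bound by T-box factors), and CAGCTG and CATATG (E-boxes, bound by basic helix-loop-helix factors), none of which contains another. The 9 promoters held 3 matches, all to CAGCTG, with 2 in *Ptgds*, starting 154 and 117 bases before the start site, and 1 in *Slc6a13*, starting 129 bases before it. Of all 32851 promoters of the table, 16.3% held CAGCTG, 13.6% TATAAA, 3.65% TGTTTAC, 1.28% AGGTGTGA and 3.91% CATATG. No match was found in the promoters of *Slc22a6*, *Ranbp3l*, *Slc6a20a*, *Col1a2* or *Bnc2*. A match is a run of letters and not a binding site. Of the 4 genes shown only *Ptgds* and *Slc6a13* held a match, *Slc6a13* at its second start site and not at its other start sites.

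The nuclei that carried the 10 genes were deposited under names of neurons. With all 4 libraries pooled, the highest level of 9 of them stood in 1 of 2 types, cluster 14 of the inhibitory neurons or cluster 19 of the excitatory neurons. For *Dcn* it stood in EC. Cluster 14 had 64 and 250 nuclei in mutant replicates 1 and 2 and 82 and 123 in the control replicates, and cluster 19 had 19 and 64 and then 33 and 19. Their neuronal names go against their transcripts. *Gad1*, which makes GABA and defines inhibitory neurons, was at 25.3 CPM in cluster 14 (UMIs of all 4 libraries pooled), against 208 to 567 CPM in inhibitory clusters 5, 12 and 18. *Slc17a7*, the vesicular glutamate transporter, was at 53.0 CPM in cluster 19 and at 67.2 CPM in cluster 14, against 323 CPM in excitatory cluster 8. The gap was narrower for the 5 excitatory genes of the fixed list, *Slc17a7* among them. By library and with TMM scaling they summed to 288 to 814 CPM in cluster 19. They summed to 811 to 1001 CPM in excitatory cluster 13 and 1026 to 1253 CPM in excitatory cluster 8. *Foxd1*, a forkhead factor of meningeal cells, was in contrast at 228 CPM in cluster 14 and 401 CPM in cluster 19, and at most 3.73 CPM in types other than these and the type EC. Cluster 14 also held vascular transcripts, with *Cldn5* (a tight junction protein of endothelium) at 627 CPM and *Rgs5* (a pericyte gene) at 506 CPM. In cluster 14, 58 of 64, 206 of 250, 74 of 82 and 102 of 123 nuclei had more UMIs of the fixed meningeal lists than of the endothelial and mural lists (mutant replicates 1 and 2, then control replicates 1 and 2). The clusters are called here by number, since each was made from all genes of these nuclei. For the same reason the levels below are a description of where the genes were found and not a test. Apart from the sums of the 5 excitatory genes, CPM in this paragraph and in the description over types that follows was scaled to all UMIs of the type, without TMM. The comparisons of genotypes further on use TMM scaling over the genes that passed the filter on low counts. The same gene and library thus have different CPM values in the description and in the comparisons.

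**Figure D1:**
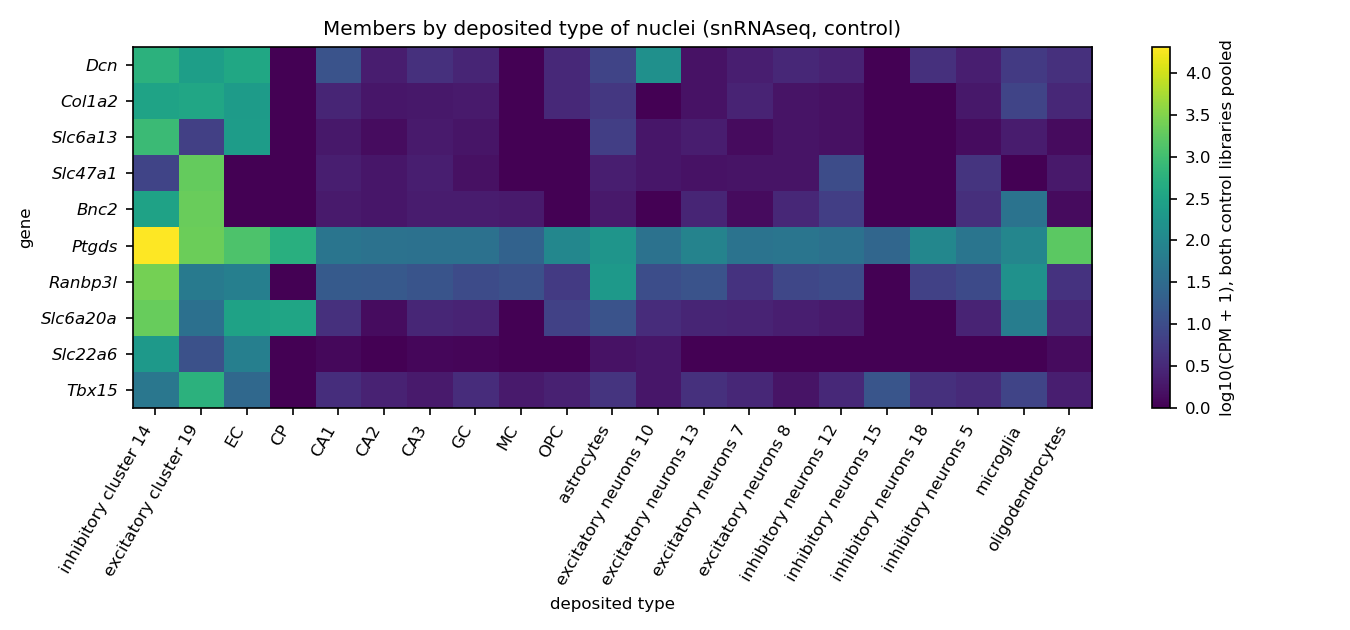
Levels of the 10 genes (rows) in each deposited type of nuclei (columns), as log10(CPM + 1) of the UMIs of both control libraries pooled. *Slc6a13*, *Ranbp3l*, *Slc6a20a* and *Slc22a6* are brightest in inhibitory cluster 14 and *Slc47a1*, *Bnc2* and *Tbx15* in excitatory cluster 19, while *Ptgds* is above 0 in every type.

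The list fell into 3 patterns over the types. *Slc6a13*, *Ranbp3l*, *Slc6a20a*, *Slc22a6* and *Ptgds* were highest in cluster 14. *Slc6a13* was at 696 and 537 CPM in the mutant libraries and 878 and 862 CPM in the control libraries of cluster 14, and at 42.1, 14.8, 0 and 9.14 CPM in cluster 19 (mutant replicates 1 and 2, control replicates 1 and 2). *Slc6a20a* stood at 1238 and 1003 CPM in the mutant and 2127 and 2040.2 CPM in the control libraries of cluster 14, against 0 to 252 CPM in cluster 19. *Ranbp3l* stood at 2727 and 1804 CPM in the mutant and 2246 and 2653 CPM in the control libraries of cluster 14, and the next type, astrocytes, was at 116 to 213 CPM. For each of these 3 the lowest library of cluster 14 was above the highest library of the next type. *Slc22a6* was the least abundant carrier, with 25, 98, 32 and 122 UMIs in cluster 14 (mutant replicates 1 and 2, control replicates 1 and 2), which gave 161, 115, 136 and 244 CPM. The next type of *Slc22a6* was EC, at 33.5 to 207 CPM from 2 to 8 UMIs, and the 2 ranges overlapped. *Ptgds*, the most abundant gene of the list, was at 11476 and 4704 CPM in the mutant and 25801 and 17899 CPM in the control libraries of cluster 14, above all libraries of cluster 19, which stood next at 563 to 3337 CPM.

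*Slc47a1*, *Bnc2* and *Tbx15* were highest in cluster 19. *Slc47a1* was at 1178 and 1152 CPM in the mutant and 1931 and 1929 CPM in the control libraries of cluster 19, and at 4.26 to 10.6 CPM in cluster 14, where it had 15 UMIs in all. The carrier of organic cations and the carrier of organic anions were thus found in different clusters. *Bnc2* was at 2776 and 2161 CPM in the mutant and 2440.0 and 1929 CPM in the control libraries of cluster 19, and at 175 to 555 CPM in cluster 14. *Tbx15* was at 883 and 475 CPM in the mutant and 469 and 658 CPM in the control libraries of cluster 19, and at 48.2 to 64.5 CPM in cluster 14. In each of the 3 genes the libraries of cluster 19 lay above those of every other type.

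The matrix genes marked both clusters. *Col1a2* was at 258 to 339 CPM in cluster 14 and 134 to 357 CPM in cluster 19, ranges that overlapped each other and that of EC at 207 to 268 CPM. *Dcn* was at 187 to 653 CPM in cluster 14 and 63.1 to 440 CPM in cluster 19. With all 4 libraries pooled, its highest type was EC, which had 4, 11 and 9 nuclei in 3 libraries and 0 in control replicate 1. *Dcn* stood there at 1861, 1275 and 363 CPM (mutant replicates 1 and 2, control replicate 2). In control replicate 2 EC was thus below cluster 14, which was at 653 CPM. The labels do not say what EC stands for, and its nuclei carried *Acta2*, a gene of smooth muscle, at 3122 CPM and *Cldn5* at 1547 CPM.

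Not all UMIs of the list were counted in these clusters. Free RNA of the droplets was not separated from the counts, so a UMI counted in a type need not have been made there. In the control nuclei both clusters together held 85.7% of the 182 UMIs of *Slc22a6*, 84.6% of the 755 of *Slc6a13*, 81.4% of the 1878 of *Slc6a20a*, 79.2% of the 779 of *Bnc2* and 73.6% of the 489 of *Slc47a1*. They held 64.4% of the 463 UMIs of *Col1a2*, 60.7% of the 25405 of *Ptgds* and 50.1% of the 3726 of *Ranbp3l*. For *Dcn* and *Tbx15* they held 40.4% of 1172 and 38.9% of 370. In the mutant nuclei they held 21.5% of the 1850 UMIs of *Dcn* and 43.4% of the 435 of *Tbx15*. *Dcn* had a second source among neurons, since excitatory cluster 10 was at 75.3, 70.4, 48.6 and 265 CPM (mutant replicates 1 and 2, control replicates 1 and 2), whereas the median over 16 other types was 3.26 CPM. CA1 nuclei, at 3.47 to 22.1 CPM, supplied 28.3% of the control UMIs of *Dcn* and excitatory cluster 10 another 14.6%. Of its mutant UMIs CA1 supplied 39.6% and excitatory cluster 10 supplied 20.6%. Oligodendrocytes supplied 20.0% of the control UMIs of *Ptgds*, at 675 to 1771 CPM, and astrocytes 17.9% of those of *Ranbp3l*. *Slc6a20a* was also found in CP, at 138 CPM in mutant replicate 2 and 336 CPM in control replicate 1. *Ptgds* was at 19.7 CPM or more in every one of these 16 types, and *Slc22a6* at 0.50 CPM or less.

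**Figure D2:**
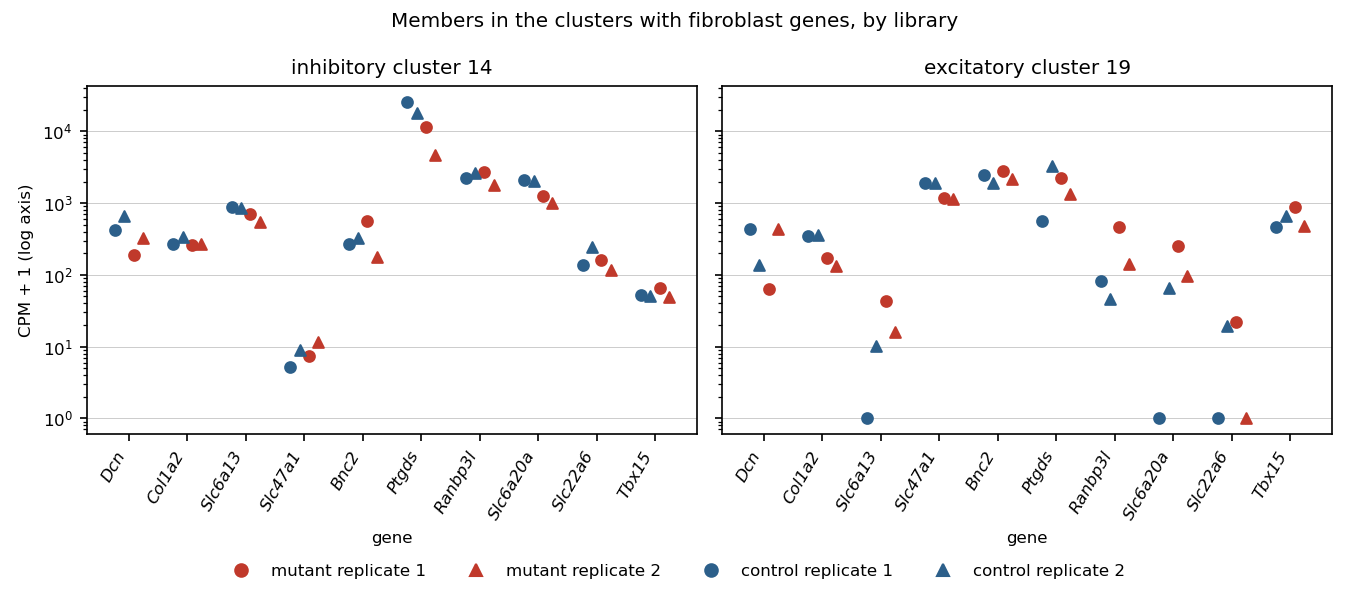
Level of each gene in each library as CPM + 1 on a log axis, in inhibitory cluster 14 (left) and excitatory cluster 19 (right), with colour for the genotype and shape for the replicate. CPM was scaled to all UMIs of the cluster in the library, without TMM. *Slc6a13*, *Slc6a20a* and *Ranbp3l* lie at 537 CPM or more in cluster 14 and at 463 CPM or less in cluster 19, and *Slc47a1* is the reverse, at 10.6 CPM or less on the left and 1152 CPM or more on the right.

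Over 21 types of control nuclei the profile of *Slc6a13*, on log2(CPM + 1), was most like that of *Slc22a6* (Pearson r 0.97) and little like that of *Slc47a1* (r 0.22). *Slc47a1* and *Slc6a20a* had the lowest r of the 45 pairs, at 0.20. Among 9682 other genes with at least 50 CPM in 1 type, *Foxd1* had the profile closest to the mean of the 10 genes (r 0.97). *Itih2*, *Tmem45a*, *Nid1*, *Aldh1a2*, *Cyp1b1*, *Anpep*, *Olfml2a*, *Wnt6* and *Mrvi1* followed, with r from 0.968 to 0.945. *Aldh1a2* makes retinoic acid, and was at 211 CPM in cluster 14 and 32.6 CPM in cluster 19 of the control nuclei. *Anpep*, an aminopeptidase, was at 88.4 and 261 CPM. *Wnt6*, a Wnt ligand, was at 110.1 and 38.0 CPM. These values are over types of the same libraries, which share their depth, and describe likeness only.

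In bulk RNAseq *Slc22a6* and *Ptgds* were lower in the mutant, whereas the 3 genes that were highest in cluster 19 did not differ beyond the spread between libraries. *Slc22a6* was at 0.850 and 1.08 CPM in mutant replicates 1 and 2 and 3.12 and 3.798 CPM in control replicates 1 and 2. The highest mutant library was below the lowest control library, and within each replicate number, and so within each sex, the mutant was lower. Its log2 fold change was -1.83 (FDR 0.0426 from the quasi-likelihood test of edgeR, adjusted by Benjamini-Hochberg, standard error 0.230), a 3.57-fold lower level. It was the 1 gene of the 10 called lower at FC above 3 and FDR below 0.05, thresholds that 0.198% of the 20687 genes tested passed in that direction. Blocking on the replicate number gave an FDR of 0.0622, and leaving out control replicate 1 or 2 gave 0.206 and 0.343, so the call is lost without either control library. By DESeq2 it was 1.1e-05, the lowest over the alternatives.

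*Slc6a13* followed, at 2.40 and 3.33 CPM in the mutant and 7.12 and 7.86 CPM in the control libraries. The genotypes did not overlap, the log2 fold change was -1.38 (standard error 0.204) and the FDR 0.0587 by edgeR. Over the alternatives its FDR ranged from 5.3e-06 by DESeq2 to 0.410 without control replicate 2, and it passed both thresholds in 1 of them, without mutant replicate 2, at a log2 fold change of -1.65 and an FDR of 0.00976. *Ranbp3l* was at 3.16 and 2.78 CPM in the mutant and 5.58 and 5.70 CPM in the control libraries, again without overlap. Its log2 fold change was -0.93 (FDR 0.0754 in edgeR and 0.00214 in DESeq2, standard error 0.156). *Ptgds*, the most abundant of the list at 481 to 829 TPM, was at 181 and 196 CPM in the mutant and 281 and 275 CPM in the control libraries. It fell by 0.56 on the log2 scale (FDR 0.0282 in edgeR, standard error 0.0589), a 1.48-fold lower level, which is below the fold threshold. Without a fold threshold 2 of the 10 genes, *Ptgds* and *Slc22a6*, were lower with FDR below 0.05, against 1.01% of all genes tested.

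The others did not pass by edgeR. *Dcn* was at 24.3 and 23.1 CPM in the mutant and 17.7 and 17.6 CPM in the control libraries. It was the only gene of the list with both mutant libraries above both control libraries. Its log2 fold change was 0.42 (FDR 0.0994 in edgeR and 0.00564 in DESeq2, standard error 0.0836), below the fold threshold. *Col1a2* was at 8.67 and 16.2 CPM against 12.2 and 17.2 CPM, and the genotypes overlapped. *Slc6a20a* was at 8.68 and 23.1 CPM against 15.5 and 18.2 CPM, so the mutant libraries lay on both sides of the control libraries. Mutant replicate 2, which was the high library of *Slc6a20a*, was also the library with the most choroid plexus transcripts, with *Ttr* at 8761 TPM against 1062, 154 and 58.1 TPM in mutant replicate 1 and the control replicates. The part of the choroid plexus in the level of *Slc6a20a* was not tested. Without mutant replicate 2 its log2 fold change went from -0.08 to -0.96, with an FDR of 0.0202 in edgeR, and over the alternatives its FDR ranged from that to 0.994.

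*Slc47a1*, *Bnc2* and *Tbx15* were low in bulk tissue and had no difference larger than the spread between libraries. *Bnc2* was at 1.07 and 1.12 CPM in the mutant and 1.08 and 1.01 CPM in the control libraries, and *Tbx15* at 0.527 and 0.465 CPM against 0.461 and 0.491 CPM. Their log2 fold changes were 0.07 (standard error 0.233) and 0.06 (standard error 0.336). *Slc47a1* was at 0.204 and 0.805 CPM in the mutant and 0.337 and 0.387 CPM in the control libraries, a log2 fold change of 0.50 (standard error 0.676). Over the list 4 genes had both mutant libraries below both control libraries, against 25.4% of all genes tested, and 1 had both above, against 25.8%. The median log2 fold change of the 10 genes was -0.16, and that of all genes 0.01. In bulk tissue, fewer cells of a type and less RNA in each cannot be told apart.

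**Figure D3:**
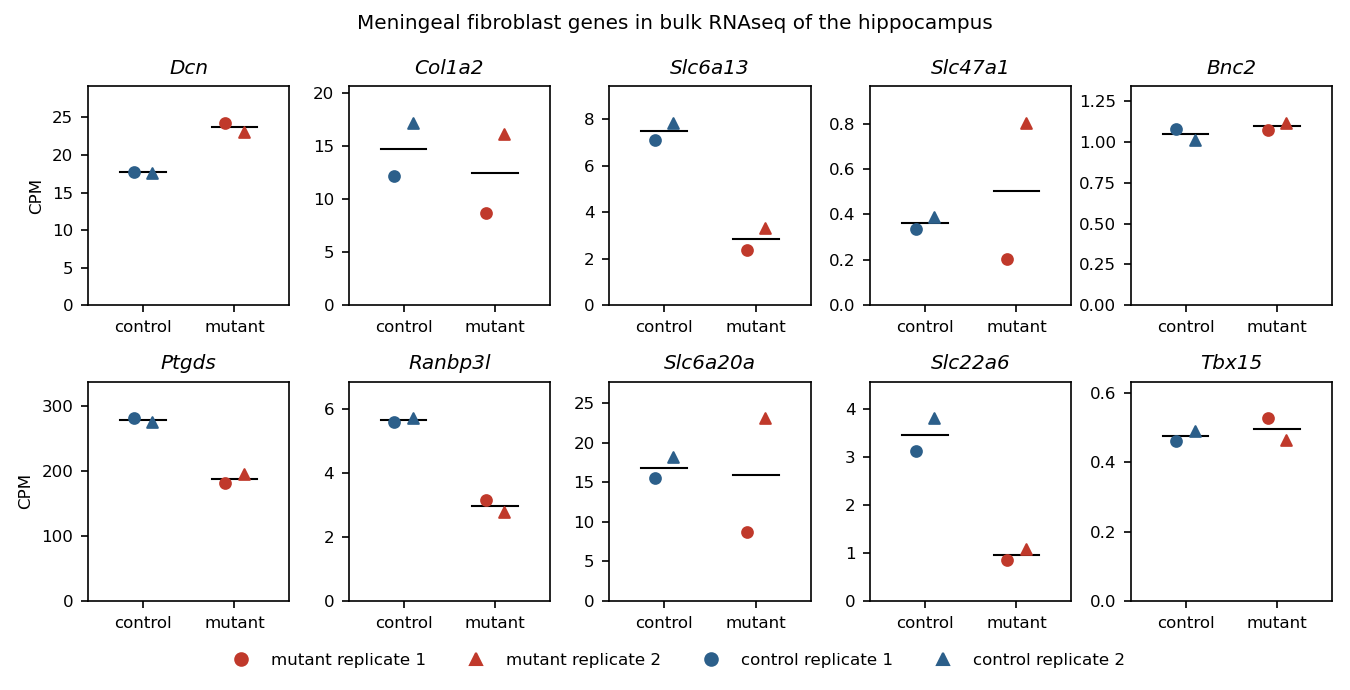
CPM of each gene in the 4 bulk libraries, with a panel and a scale from 0 for each gene, colour for the genotype, shape for the replicate and a bar at the mean of 2 libraries. In the panels of *Slc6a13*, *Ptgds*, *Ranbp3l* and *Slc22a6* both mutant points lie below both control points, in that of *Dcn* both lie above, and in that of *Slc6a20a* the mutant points stand at 8.68 and 23.1 CPM around the control points.

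Among other genes of the meninges 1 carrier passed an FDR of 0.05 in bulk tissue and none was called. Of 22 fibroblast matrix genes none was called, and their median log2 fold change was -0.10. Both mutant libraries were below the control libraries for 6 and above for 7, against 25.4% and 25.8% of all genes tested. *Col6a1*, a chain of collagen VI, was at 26.3 and 18.997 CPM against 27.1 and 24.6 CPM. *Col5a2*, a chain of collagen V, was at 20.1 and 25.3 CPM against 14.6 and 17.0 CPM, and *Bgn* (biglycan) at 14.1 and 27.1 CPM against 11.7 and 13.4 CPM. Of 8 other meningeal carriers 4 had both mutant libraries below and 1 both above the control libraries, beside the same 25.4% and 25.8%. Their median was -0.21. Among them *Slc7a11*, the cystine and glutamate exchanger, was at 27.6 and 24.5 CPM in the mutant and 42.7 and 50.8 CPM in the control libraries (log2 fold change -0.85, FDR 0.0461 in edgeR, standard error 0.112). *Slc13a4*, a sulfate carrier that is also found in CP nuclei, was at 6.92 and 44.7 CPM against 9.64 and 9.99 CPM. *Slc13a3*, a carrier of dicarboxylates, was at 15.5 and 13.1 CPM against 13.8 and 13.5 CPM. *Slc6a12*, a betaine and GABA carrier related to *Slc6a13* and named here after its values were seen, had the lowest log2 fold change of the 8, at 0.340 and 0.578 CPM against 1.35 and 1.18 CPM (log2 fold change -1.44, FDR 0.129 in edgeR, standard error 0.349).

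None of 25 meningeal regulators and signals was called in bulk tissue. In both mutant libraries 8 were lower and 4 higher than in both control libraries, against 25.4% and 25.8% of all genes tested. Their median log2 fold change was -0.14. *Igf2* and *Igfbp2*, a growth factor and a binding protein of such factors, were at 445 and 119.6 CPM in mutant replicate 2 and between 25.8 and 91.1 CPM in the other libraries, the same library that was high in *Ttr*. *Cxcl12*, a chemokine, was at 43.6 and 48.8 CPM in the mutant and 59.7 and 51.5 CPM in the control libraries. Markers of other cells were as follows. All 5 border macrophage genes had a negative log2 fold change, with a sum of 5.20 and 6.47 CPM in the mutant and 8.35 and 10.6 CPM in the control libraries, and none was called. The 9 endothelial genes summed to 221 and 237 CPM against 242 and 223 CPM. Of 9 mural genes 8 were higher in both mutant libraries than in both control libraries, against 25.8% of all genes tested, and none was called. The 5 granule cell genes summed to 76.1 and 70.2 CPM against 366 and 375 CPM. *Prox1*, *Dsp*, *Plk5* and *C1ql2* among them were called lower. Of 5 ependymal genes all were higher in both mutant libraries, against 25.8% of all genes tested, and *Dynlrb2* was called. Oligodendrocytes also held UMIs of *Ptgds*, and their genes summed to 2659 and 2047 CPM against 2052 and 1675 CPM. Astrocytes also held UMIs of *Ranbp3l*, and their genes summed to 3062 and 2769.6 CPM against 3668 and 3843 CPM. Those of inhibitory and of excitatory neurons had median log2 fold changes of 0.27 and -0.04. The part of any of these in the levels of the 10 genes was not tested.

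In snRNAseq none of the 10 genes passed FC above 2 and FDR below 0.05 by edgeR in the sum over all nuclei, in cluster 14 or in cluster 19. In each of the 3 comparisons 0% of all genes tested passed (20575, 7659 and 2201 genes), while 3042, 428 and 172 genes had an unadjusted p below 0.05. DESeq2 called 1 of the 10, *Ptgds*, in the sum over all nuclei and 0 in either cluster. *Ptgds* was at 114 and 94.8 CPM in the mutant and 251 and 255 CPM in the control libraries over all nuclei. These did not overlap, and the log2 fold change was -1.28 (FDR 0.161 in edgeR and 7.3e-09 in DESeq2, standard error 0.151). Blocking on the replicate number gave an FDR of 0.00985 in edgeR, and the highest over the alternatives was 0.430, without control replicate 1. The oligodendrocyte genes summed to 138 and 445 CPM in the mutant and 266 and 618 CPM in the control nuclei, ranges that overlapped, and their part in the level of *Ptgds* was not tested. *Slc6a20a* was at 9.55 and 15.6 CPM against 17.1 and 19.7 CPM (log2 fold change -0.54, standard error 0.260). *Bnc2* was at 9.98 and 9.86 CPM against 7.73 and 7.80 CPM, and *Tbx15* at 5.39 and 3.74 CPM against 3.61 and 3.74 CPM. For the first pair both mutant libraries were lower than both control libraries, against 24% of all genes, and for the second pair both were higher, against 24.5%, although the lower mutant and the higher control library of *Tbx15* both stood at 3.74 CPM.

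The other genes with both mutant libraries lower in bulk tissue did not differ beyond the spread between libraries over all nuclei. *Slc22a6* was at 1.27 and 1.55 CPM in the mutant and 1.06 and 2.27 CPM in the control libraries, and *Slc6a13* at 5.05 and 7.47 CPM against 6.56 and 8.12 CPM. *Ranbp3l* was at 26.4 and 37.5 CPM against 30.7 and 41.1 CPM. In each of the 3 the libraries of the genotypes overlapped, and the log2 fold changes of -0.25, -0.22 and -0.17 had standard errors of 0.432, 0.271 and 0.229. *Dcn*, at 14.4 and 18.7 CPM against 6.59 and 14.8 CPM, and *Col1a2*, at 2.43 and 6.77 CPM against 3.06 and 5.56 CPM, overlapped as well, as did *Slc47a1* at 3.93 and 4.78 CPM against 4.36 and 5.19 CPM. The mice of the 2 assays were different animals, and the difference between the assays was not tested.

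Within cluster 14, 9 of the 10 genes passed the filter on low counts, all but *Slc47a1*. CPM in the comparisons within types was scaled by TMM over the genes that passed, and is not on the scale of the description over types. Both mutant libraries were below both control libraries for 5 of the 9, *Ptgds*, *Slc6a20a*, *Dcn*, *Slc6a13* and *Col1a2*, against 18.4% of all genes tested, and above for 0, against 17.5%. *Ptgds* was at 12860 and 5141 CPM in the mutant and 28034 and 19314 CPM in the control libraries (log2 fold change -1.40, standard error 0.437, unadjusted p 0.0102 in edgeR's fit over all genes, FDR 0.830). *Slc6a20a* was at 1387 and 1096 CPM against 2311 and 2202 CPM (log2 fold change -0.87, standard error 0.266). *Dcn* was at 209.5 and 354 CPM against 463 and 704 CPM, the opposite direction to its bulk level, with a log2 fold change of -1.004 (standard error 0.334). *Slc6a13* was at 780 and 587 CPM against 954 and 931 CPM (log2 fold change -0.48, standard error 0.268), and *Col1a2* at 289 and 289 CPM against 292 and 366 CPM (log2 fold change -0.20, standard error 0.268). None of these had an FDR below 0.830 by edgeR. Without 1 library the log2 fold change of *Ptgds* in cluster 14 ranged from -2.21, with an FDR of 0.0101 without mutant replicate 1, to -0.90 without mutant replicate 2, and over all alternatives its FDR ranged from 0.000256 with no filter on low counts to 0.9998 by DESeq2.

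The other members of cluster 14 overlapped between the genotypes. *Ranbp3l* was at 3056 and 1972 CPM in the mutant and 2441 and 2863 CPM in the control libraries, *Slc22a6* at 181 and 126 CPM against 148 and 263 CPM, *Bnc2* at 621 and 191 CPM against 292 and 347 CPM and *Tbx15* at 72.2 and 52.6 CPM against 55.6 and 53.9 CPM. The log2 fold change of *Slc22a6* here was -0.54 (standard error 0.348). *Wls* was at 202 and 213 CPM in the mutant and 542 and 508 CPM in the control libraries of cluster 14, a log2 fold change of -1.33 (FDR 0.726 in edgeR, standard error 0.263). The endothelial genes of cluster 14 summed to 3013 and 3167 CPM in the mutant and 2098 and 3673 CPM in the control libraries, and the mural genes to 2225 and 1784 CPM against 2399 and 2182 CPM. Restricted to nuclei with more meningeal than vascular UMIs, an alternative chosen after the data were seen, the log2 fold changes were -1.36 for *Ptgds*, -0.81 for *Slc6a20a*, -0.92 for *Dcn* and -0.40 for *Slc6a13*, and none was called. The part of the vascular nuclei in these values was not tested.

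**Figure D4:**
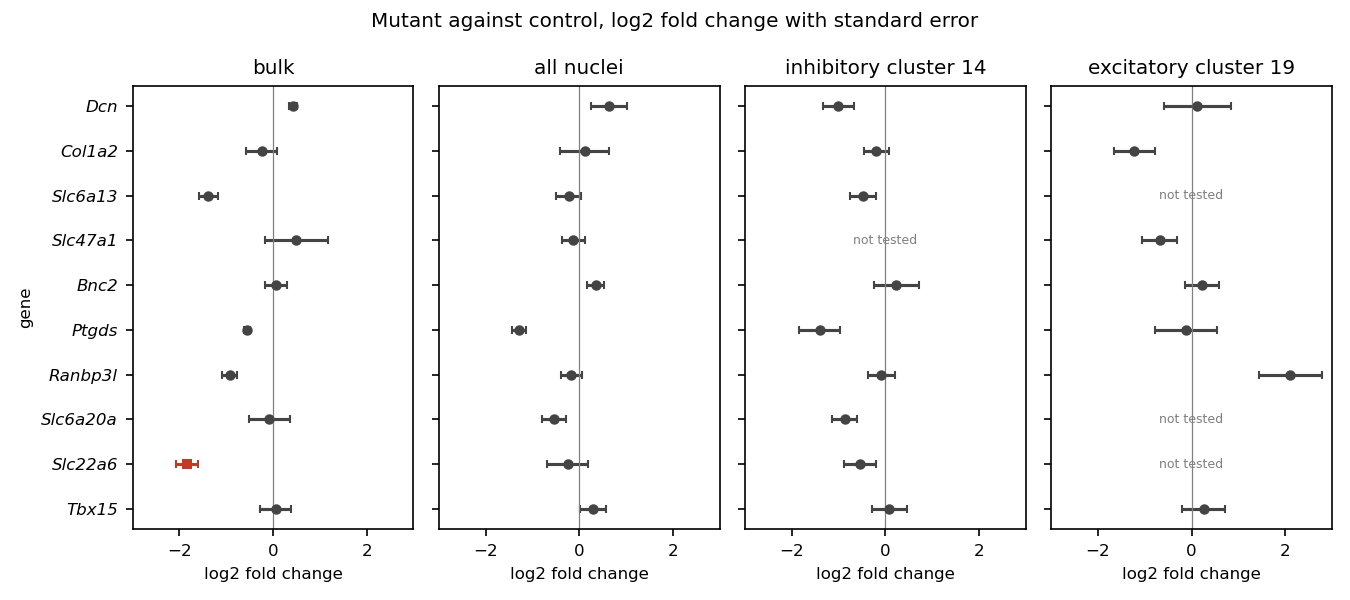
Log2 fold change of mutant over control (x axis) with 1 standard error for each gene (rows) in bulk RNAseq, all nuclei, inhibitory cluster 14 and excitatory cluster 19. The square marks the 1 called value, *Slc22a6* in bulk tissue at -1.83, and genes that did not pass the filter on low counts are marked as not tested.

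Within cluster 19, 7 of the 10 genes were tested, and *Slc6a13*, *Slc6a20a* and *Slc22a6* had too few UMIs. *Slc47a1* was at 1794 and 1784 CPM in the mutant and 2776 and 2962 CPM in the control libraries, without overlap, with a log2 fold change of -0.68 (standard error 0.370). *Col1a2* was at 256 and 207 CPM against 501 and 547 CPM, also without overlap (log2 fold change -1.22, FDR 0.491 in edgeR, standard error 0.444). Both mutant libraries were lower for these 2 of 7, against 18.9% of all genes tested. *Ranbp3l* was the 1 gene with both higher, against 17.4%, at 705 and 214 CPM in the mutant and 116 and 70.2 CPM in the control libraries, from 22, 28, 6 and 5 UMIs (log2 fold change 2.11, FDR 0.441 in edgeR, standard error 0.674). Over the alternatives its FDR ranged from 0.00408, without mutant replicate 2, to 0.9998 by DESeq2. *Bnc2*, at 4229 and 3347 CPM against 3509 and 2962 CPM, and *Tbx15*, at 1346 and 735 CPM against 675 and 1011 CPM, overlapped, as did *Dcn* and *Ptgds*. *Ptgds* ranged from 810 to 5124 CPM between the 2 control libraries alone. Of 9 matrix genes tested in cluster 19, 4 had both mutant libraries lower, against 18.9% of all genes tested. Their median log2 fold change was -1.06, beside 0.05 over all genes. *Mgp* (matrix Gla protein, which inhibits calcification) was at 1922 and 1371 CPM in the mutant and 3740 and 7230 CPM in the control libraries, *Islr* (a leucine-rich repeat protein of stromal cells) at 320 and 199 CPM against 386 and 828 CPM and *Fbln1* (fibulin 1) at 352 and 138 CPM against 328 and 632 CPM, and none of the 9 was called.

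In cluster 14, 18 of the 22 matrix genes were tested. Of these 7 had both mutant libraries lower and 1 both higher, against 18.4% and 17.5% of all genes tested. Their median log2 fold change was -0.39, beside 0.01 over all genes. *Lama1*, a laminin chain of the pial basement membrane, was at 231 and 384 CPM against 486 and 609.6 CPM, *Fmod* (fibromodulin, another small proteoglycan) at 267 and 358 CPM against 477 and 340.4 CPM and *Col1a1* at 224 and 175 CPM against 269 and 254 CPM. Of the 6 other carriers tested there 2 had both mutant libraries lower, against the same 18.4%. *Slc7a11* was at 1741 and 1544 CPM in the mutant and 2163 and 2277 CPM in the control libraries (log2 fold change -0.44, standard error 0.256), and *Slc13a4* at 556 and 481 CPM against 926 and 644 CPM, while *Slc13a3* at 426 and 398 CPM against 384 and 448 CPM overlapped. Of 17 regulators and signals 2 had both mutant libraries lower and 4 both higher, against the same 18.4% and 17.5%, with a median of 0.04. *Igfbp2* was at 564 and 531 CPM against 959 and 989 CPM, whereas *Bmp6*, a bone morphogenetic protein, stood at 1806 and 1742 CPM against 1718 and 1568 CPM and *Zic1*, a zinc finger factor, at 368 and 417 CPM against 366 and 459 CPM. None of these genes was called.

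Over the remaining 16 types with at least 10 nuclei in every library, 45 tests of a gene of the list in a type could be made, and none was called, against 0.201% of all 172353 tests of any gene in these types. *Ptgds* made up 14 of the 45 tests. Its log2 fold change was negative in all 14, from -1.99 in astrocytes to -0.56 in excitatory cluster 8, and in 8 of the 14 both mutant libraries were below both control libraries, against 20.8% of all tests. In oligodendrocytes, which make *Ptgds*, the gene stood at 1361 and 693 CPM in the mutant and 1787 and 1687 CPM in the control libraries (log2 fold change -0.80, FDR 0.462 in edgeR, standard error 0.256). In astrocytes the gene stood at 105 and 31.2 CPM against 298 and 109 CPM (log2 fold change -1.99, FDR 0.0602 in edgeR, standard error 0.451). In the neurons of CA1 the gene stood at 33.9 and 26.1 CPM against 66.9 and 33.3 CPM. The genotypes overlapped in CA1, in CA3 and in excitatory clusters 7, 8, 10 and 13, and without control replicate 1 the direction turned in clusters 8, 10 and 13. Free RNA of the droplets was not separated from these counts. *Ranbp3l* in astrocytes, its next type after cluster 14, had both mutant libraries below both control libraries. Its log2 fold change there was -0.73, with an FDR of 0.116 by edgeR.

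**Figure D5:**
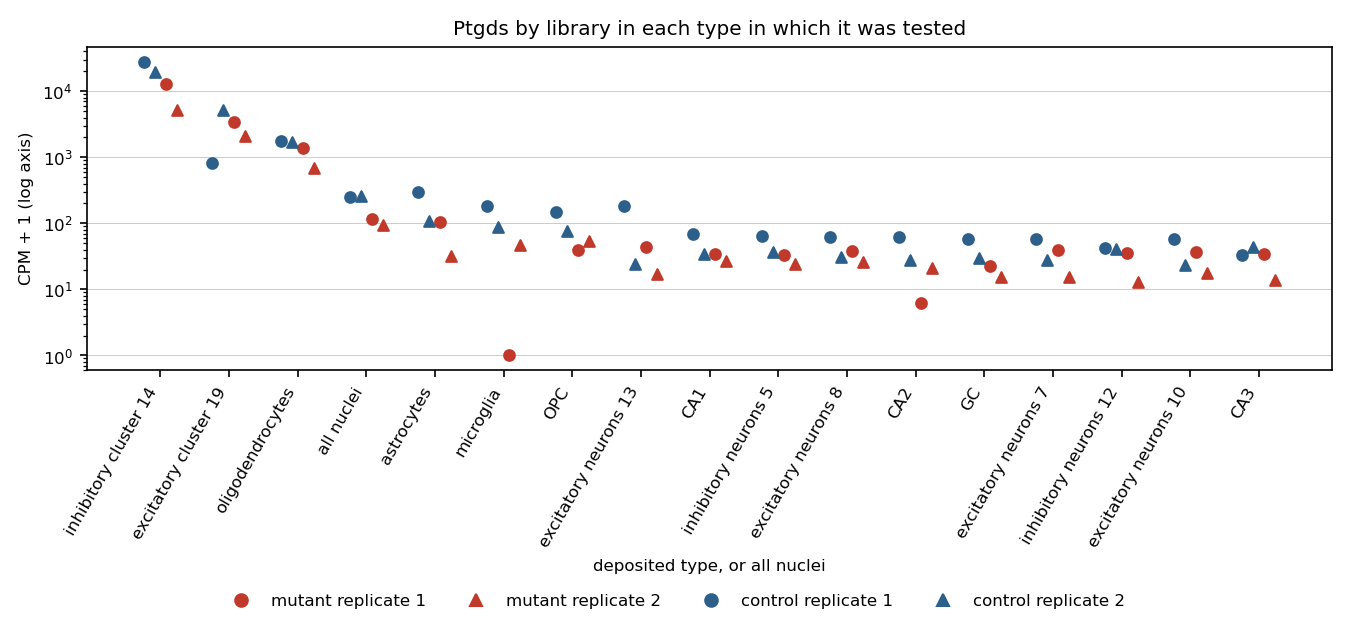
*Ptgds* in each library as CPM + 1 on a log axis, for all nuclei and for each type in which it was tested, ordered by the mean of the control libraries. The mutant points (red) lie below the control points (blue) in cluster 14, in oligodendrocytes and in 7 of the 13 remaining types, and overlap them widely in excitatory cluster 19.

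The number of nuclei in the clusters did not differ between the genotypes beyond the spread between mice. Cluster 14 was 1.21% and 2.39% of the nuclei in the mutant and 1.27% and 1.71% in the control libraries (log2 fold change 0.27, FDR 0.816 in edgeR, standard error 0.630 over 21 types). Cluster 19 was 0.358% and 0.612% against 0.510% and 0.264% (log2 fold change 0.33, standard error 0.801, FDR 0.816). Granule cells take a smaller share of the mutant nuclei, and with the nuclei other than granule cells as the total the log2 fold changes were -0.22 and -0.20. Clusters 14 and 19 held 61.7% and 55.9% of the UMIs of all 10 genes in the mutant and 64.2% and 59.4% in the control libraries. This sum is carried by *Ptgds*, which was 114 of 192.1 and 94.8 of 201 CPM in the mutant and 251 of 332 and 255 of 363 CPM in the control libraries over all nuclei.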

How the data were processed

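Bulk RNAseq libraries were made with a directional kit, and the authors aligned the reads to mm10 with RSEM 1.3.0 and Bowtie2 2.2.9 and deposited an expected count and a TPM (a relative level corrected for transcript length) for each gene and library, beside a signal matrix of counts over 1 size factor for each library. In snRNAseq the authors used Cell Ranger 3.1.0 on an mm10 pre-mRNA index and deposited UMI counts per nucleus with their own types. The annotation release and the strand setting of the counting are not given in the sources used here. The labels do not say whether the mice of a group were littermates.

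Expected counts were rounded. UMIs were summed per mouse over all nuclei and over each type with at least 10 nuclei in every library, and nuclei were not treated as replicates. The nuclei were used as deposited, and doublets were not called again. Genotypes were compared with the quasi-likelihood test of edgeR 4.0.16 in R 4.3.3 after its filter on low counts and TMM scaling, fitted over all genes that passed, with Benjamini-Hochberg adjustment. Genes were called at FDR below 0.05 and FC above 3 in bulk RNAseq or above 2 in snRNAseq. These thresholds were taken from the study's results, where the second served a regression over nuclei and not sums per mouse. The study's tools EBSeq and Monocle were not run. The tests were checked on simulated data. With 2 libraries in each group an exact permutation test cannot go below p = 0.333, so none is given.

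Alternatives were DESeq2 1.42.0, limma 3.58.1 on log2(value + 1) of the deposited matrix, RLE size factors, no filter, total UMIs, the replicate number as a block, removal of each library or of the 2% of nuclei with most UMIs, and no fold threshold. The members and lists were chosen with earlier results of these data known. Besides the 10 genes, the text names from each of 13 other lists the genes past the threshold or up to 3 with the highest mean level, and the 10 genes most like the members over types. Types, motifs and markers outside these are described as chosen. Python 3.11.15 was used for sums and figures.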

Additional observations from a re-analysis of the deposited data

Results flagged for a closer look

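Some genes of the list had log2 fold changes of opposite sign in different types of nuclei. In each, both mutant libraries were on 1 side of both control libraries, and the genes were picked for this pattern. In types other than clusters 14 and 19, both mutant libraries were lower in 20.8% of all tests. In cluster 14 both were lower for 18.4% of all genes tested, and in cluster 19 both were higher for 17.4%. None of these differences between types was tested, and none of the values passed an FDR of 0.05 by edgeR. *Dcn* had a log2 fold change of -1.004 in inhibitory cluster 14 and 1.66 in inhibitory cluster 5, where it stood at 3.65 and 4.31 CPM in the mutant and 0.339 and 1.89 CPM in the control libraries. *Bnc2* had -0.47 in microglia, at 0 and 36.46 CPM in the mutant and 36.63 and 52.1 CPM in the control libraries (FDR 0.9996 in edgeR). The value of 0 was that of mutant replicate 1, which had 13 microglia, and the nearest libraries of the genotypes were almost level. In CA3 *Bnc2* had 1.37, at 2.80 and 2.77 CPM against 0.598 and 1.37 CPM. *Ranbp3l* had -0.73 in astrocytes and -0.53 in excitatory cluster 8, and 0.43 in GC, 0.54 in inhibitory cluster 5 and 2.11 in excitatory cluster 19.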

How the results depend on the processing

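With 2 mice in each group, a single library moved many values. Of the 10 genes 1 was called in bulk RNAseq, 0 with the replicate number as a block, 2 with no fold threshold, and 0 to 2 without 1 library (0 without control replicate 1 or 2, and 2 without mutant replicate 2). Over all nuclei 0 were called, against 1 by DESeq2 and 1 with the block. In cluster 14 the count went from 0 to 1 with no filter on low counts and was 0 to 1 without 1 library (1 without mutant replicate 1), and in cluster 19 it was 0 to 1 (1 without mutant replicate 2). In the other types it went from 0 to 1 with RLE size factors, 4 with no filter, 5 with the block, 1 with total UMIs and 1 without the nuclei of most UMIs, and it was 0 to 7 without 1 library (7 without mutant replicate 1 or control replicate 2, 3 without control replicate 1). The log2 fold change of the number of nuclei went from 0.27 to -0.22 in cluster 14 and from 0.33 to -0.20 in cluster 19 with nuclei other than granule cells as the total, and it ranged from -0.30 to 0.68 and from -0.11 to 0.88 without 1 library. The number of all genes called also moved with the setting, so these counts do not set the list apart from other genes. In cluster 14, 0 of 7659 genes were called, against 19 lower and 17 higher of 19320 with no filter on low counts. For the other types the share of all tests called under each alternative is not given. A general rise in calls there cannot be told from one of the list. Causes were not tested.

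Single genes that changed direction without 1 library had log2 fold changes from -0.77 to 0.13 (*Col1a2*), -0.83 to 1.15 (*Slc47a1*), -0.96 to 0.45 (*Slc6a20a*) and -0.035 to 0.14 (*Tbx15*) in bulk RNAseq. Over all nuclei they had -0.84 to 0.64 (*Col1a2*), -0.55 to 0.02 (*Slc6a13*), -0.45 to 0.057 (*Ranbp3l*) and -0.69 to 0.40 (*Slc22a6*). In cluster 14 they had -0.75 to 0.93 (*Bnc2*), -0.43 to 0.18 (*Ranbp3l*) and -0.057 to 0.38 (*Tbx15*), and in cluster 19 -2.01 to 1.11 (*Dcn*), -0.91 to 1.80 (*Ptgds*) and -0.16 to 0.69 (*Tbx15*). *Ptgds* ranged from -1.27 to 0.13 in excitatory cluster 10, -2.66 to 0.31 in cluster 13 and -0.97 to 0.029 in cluster 8. In cluster 19 *Dcn* also went to -0.0041 by DESeq2 and *Ptgds* to 0.32 with the block. The labels give same-numbered libraries no shared litter or batch, although sex followed the number in bulk RNAseq. The correlation of their deviations was 0.066 in bulk RNAseq, 0.53 over all nuclei, 0.061 in cluster 14 and 0.019 in cluster 19. Genes called in bulk tissue numbered 41 lower and 4 higher, against 56 and 69 by DESeq2, 24 and 2 with the block and 112 and 201 with no filter. Over all nuclei 0 genes were called by edgeR, against 164 lower and 120 higher by DESeq2 and 220 and 223 with the block. Counts of a few UMIs limited *Slc22a6*, *Slc47a1* and *Tbx15* outside their clusters.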
